A study of Mus musculus with 4 samples.

Results

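The G37L comparison set liver RNA of mice carrying 2 transgene copies of a mutant selenocysteine tRNA against liver RNA of wild-type littermates. It is the G37L column of the deposited table, and its members were all probes with 1 annotated gene, 13047 of 15478 probes, averaged to 9285 genes. The study hybridised 2-colour arrays with liver RNA of male B6/FVB mice, 7 to 8 weeks old and fed a diet sufficient in selenium, with wild type in Cy3 and mutant in Cy5. G37L mice carried 2 copies, and G37H mice 16 copies, of a selenocysteine tRNA transgene in which A37 was changed to G37. The A34 transgene, also in 2 copies, had T34 changed to A34, and DTrsp mice lacked the selenocysteine tRNA gene, Trsp, in the liver. Each column is the authors' average over animals, 4 for G37L, A34 and DTrsp and 3 for G37H. The labels describe each line as harvested after several passages. Whether transgenic livers also lacked their own Trsp, which promoter drove the transgene, and how many founders each line had are not stated here.

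Selenocysteine tRNA carries selenocysteine to the UGA codons of selenoprotein messages, and in mammals some of these tRNA molecules gain a methyl group on the ribose of the base at position 34. Position 37, beside the anticodon, holds an isopentenyl-modified adenosine, and a G at that position cannot take this modification. Selenoproteins of the stress-related kind, such as Gpx1 and Selenow, are known to depend most on the fully modified tRNA, whereas housekeeping selenoproteins such as Gpx4 depend on it less.

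The values are read as log2 of mutant over wild type, and a value of 1 is a 2-fold difference. The direction is likely, not stated: it follows from the dyes in the labels, the titles name wild type first, and a turned ratio would change every sign below. No label gives the base of the logarithm. Since each gene has 1 averaged value, no spread between animals, test or p-value can be given, and "higher" and "lower" below describe that average alone. In whole liver, a change in the number of cells of a type and a change in RNA per cell cannot be told apart. Trsp itself had no named probe.

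Over the 9285 genes the median ratio in G37L was -0.11, the quartiles were -0.42 and 0.18, and the SD over genes was 0.54. Values below 0 were held by 60.6% of genes. At least 2-fold higher were 233 genes, or 2.51% of those measured, and 368 genes, or 3.96%, were lower by that much. Centred on the column median, the counts were 301 higher, or 3.24%, and 253 lower, or 2.72%. Centred instead on 199 constitutive genes (ribosomal proteins, respiratory chain, proteasome and reference genes), whose median was 0.17, they were 157 higher and 668 lower. The balance of higher and lower genes therefore turned on the centring, whereas the genes at both ends lay far beyond these shifts. In G37H, for comparison, 2.78% of genes were at least 2-fold higher and 3.1% lower by that much. The column medians of the other lines were 0.16 in DTrsp, 0.07 in A34 and -0.11 in G37H. List medians given below for different lines are as deposited unless called centred, and carry these offsets.

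By their medians, acute phase genes and parts of the secretory pathway were among the highest lists, and female-biased, lymphocyte, sulfur amino acid and bile acid genes were the lowest. The median was 1.69 for 29 acute phase genes, 0.85 for 6 neutrophil markers, of which Lcn2 is also an acute phase gene, 0.61 for 22 genes of protein entry into the endoplasmic reticulum (ER) and 0.55 for 34 ER chaperones and disulfide enzymes. Next came 14 plasma proteins known to fall in inflammation and 26 complement genes, both at 0.48, then 32 Kupffer cell and macrophage markers at 0.46 and 22 male-biased liver genes at 0.42. It was -0.81 for 11 genes known as female-biased in mouse liver, -0.60 for 9 lymphocyte markers, -0.47 for 22 genes of sulfur amino acid metabolism, and -0.43 for 24 genes of bile acid synthesis and transport. A pair of broad sets showed how far abundant and little-used transcripts stood apart in this column. The median of 64 cytosolic ribosomal protein genes, transcribed strongly in any tissue, was 0.33, and that of 77 olfactory, vomeronasal and taste receptor genes, with no known use in liver, was -0.26. A list median inside that interval is given only as a value. Signal intensity was not used here, so its part in any ratio was not tested.

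**Figure D1:**
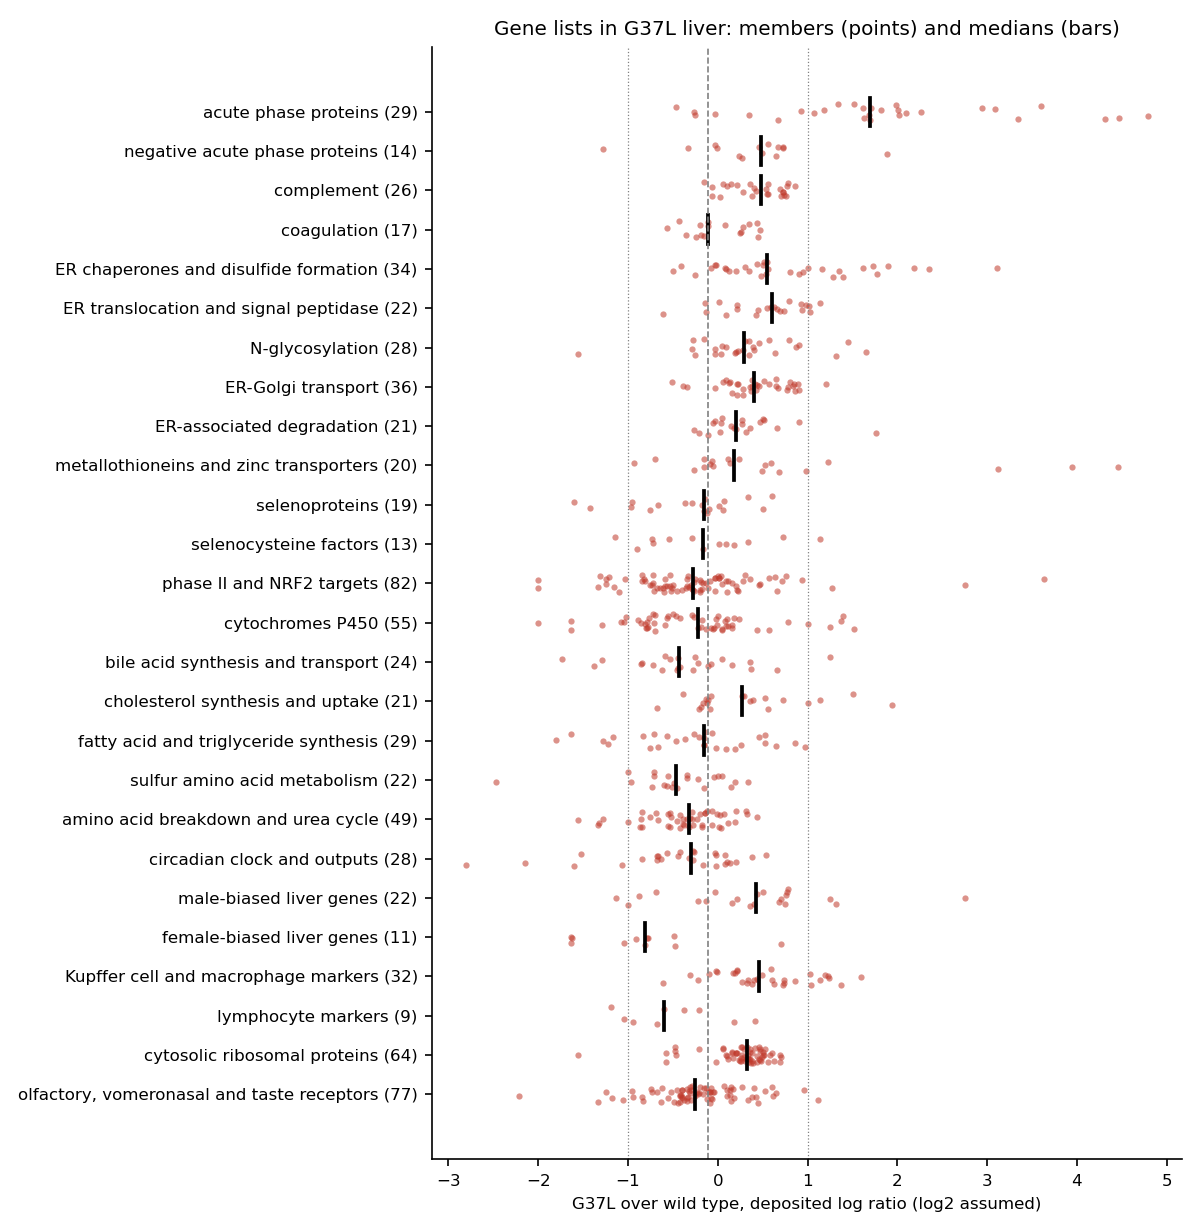
Deposited log ratios of G37L over wild type (horizontal axis, log2 assumed) for the measured members of 26 gene lists, with 1 point per gene and a black bar at each list's median; the dashed line marks the column median and dotted lines mark 2-fold. Acute phase proteins have the highest median, 1.69, and female-biased liver genes the lowest, -0.81.

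The promoters of ER chaperone genes were searched for the ER stress response element, which is CCAAT, then 9 bases of any kind, then CCACG, because that list was among the highest and the element is the known site through which ATF6 and XBP1 act. Windows of RefSeq (build GRCm38.p6) run from 250 bases before to 50 bases after each gene's start, and both strands were read. The element was in 39 of 32851 windows, or 0.119%. Among genes measured here with a window, 14 of 7539 held it, and 7 of these 14 belonged to the ER chaperone list, of whose 34 members 30 had a window. The 250 bases before the start are shown for 4 element holders that were at least 2-fold higher and for Canx, a holder that was not, with the element in capitals. On the reverse strand the element reads as its complement, from the CGTGG end.

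Hspa5, chr2:34771840-34772089, plus strand: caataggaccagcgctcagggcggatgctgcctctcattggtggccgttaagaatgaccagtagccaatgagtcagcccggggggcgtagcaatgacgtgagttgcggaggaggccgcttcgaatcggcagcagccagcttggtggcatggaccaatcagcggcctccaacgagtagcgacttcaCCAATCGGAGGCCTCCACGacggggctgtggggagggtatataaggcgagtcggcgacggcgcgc
Creld2, chr15:88819396-88819645, plus strand: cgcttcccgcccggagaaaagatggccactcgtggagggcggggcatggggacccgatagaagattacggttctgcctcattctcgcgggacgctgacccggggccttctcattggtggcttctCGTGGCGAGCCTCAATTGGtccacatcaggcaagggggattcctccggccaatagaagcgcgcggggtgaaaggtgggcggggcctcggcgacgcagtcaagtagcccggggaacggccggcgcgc
Hsp90b1, chr10:86705445-86705694, minus strand: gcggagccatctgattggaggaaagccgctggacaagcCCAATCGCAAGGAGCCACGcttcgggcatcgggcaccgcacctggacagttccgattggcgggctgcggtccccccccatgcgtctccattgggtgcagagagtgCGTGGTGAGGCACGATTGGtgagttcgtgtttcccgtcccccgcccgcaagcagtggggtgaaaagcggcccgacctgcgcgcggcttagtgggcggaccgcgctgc
Syvn1, chr19:6046326-6046575, plus strand: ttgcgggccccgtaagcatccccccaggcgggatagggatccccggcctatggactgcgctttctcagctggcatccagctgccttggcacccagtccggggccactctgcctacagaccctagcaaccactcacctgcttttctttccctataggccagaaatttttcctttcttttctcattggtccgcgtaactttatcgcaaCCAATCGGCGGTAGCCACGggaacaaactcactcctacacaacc
Canx, chr11:50325674-50325923, minus strand: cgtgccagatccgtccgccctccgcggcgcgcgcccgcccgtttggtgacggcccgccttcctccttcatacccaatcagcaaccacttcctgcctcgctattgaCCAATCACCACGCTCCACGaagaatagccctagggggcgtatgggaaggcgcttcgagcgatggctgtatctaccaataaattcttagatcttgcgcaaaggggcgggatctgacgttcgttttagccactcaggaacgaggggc

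Hsp90b1 held the element once on each strand, and the others held it once. Its last base lay 26 bases before the start in Syvn1, 47 in Hspa5, 108 in Creld2 and 127 in Canx. The 14 holders had a median of 0.84 in G37L and 0.15 in G37H, and 4 of them were at least 2-fold higher in G37L: Creld2, Hspa5, Syvn1 and Hsp90b1. The other holders in the ER list were Ero1b at 0.94, Pdia6 at 0.91, Dnajc3 at 0.13 and Canx at -0.25. Holders outside the ER list, apart from Syvn1, ran from Acacb at 0.97, over probes of -0.06 and 2.01, to Pan2 at -0.39. Of the 10 ER genes at least 2-fold higher that had a window, 3 held the element, against 4 of the 20 others, so most of the higher ER genes had no such letters in this window. The core of a related XBP1 site, TGACGTGG, whose reverse complement shares its CCACG start with the end of the element, was in 0.676% of all windows, in 2 of the 39 windows of the ER list, and in 9 of the 38 windows of ER to Golgi transport genes. A match is a description of the letters only.

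ER chaperones were higher in G37L. These proteins fold and join newly made secretory proteins in the ER. Of 34 measured genes, 12 were at least 2-fold higher, beside 2.51% of all genes, and 0 were lower by that much, beside 3.96%. As deposited 28 lay above 0, and 31 lay above the column median. The members of the Hsp70 system led. Creld2, an ER protein known as a target of ATF6, was at 3.11, or 8.66-fold. Manf, a secreted protein that binds Hspa5, was at 2.35. Hspa5 itself (BiP), the main Hsp70 of the ER, was at 1.78, or 3.43-fold. Its partners Sdf2l1, Dnajb11, Hyou1 and Dnajb9 were at 1.90, 1.73, 1.62 and 1.39. Sil1, a nucleotide exchange factor of Hspa5, was at -0.02, and the J proteins Dnajc3 and Dnajc1 were at 0.13 and -0.41. The members of the Hsp70 system therefore spanned a wide range, from 3.11 down to -0.41.

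Among enzymes that form disulfides and turn proline, Fkbp11 was at 2.18, Pdia3 at 1.35, Pdia4 at 1.28 and Pdia5 at the 2-fold line, with probes of 0.98 and 1.02. Pdia6, Erp29, Erp44 and P4hb were at 0.91, 0.81, 0.55 and 0.44. The oxidases that reload them stood apart from each other, with Ero1b at 0.94 and Ero1a at -0.50. Of the Hsp90 and lectin chaperones only Hsp90b1 passed 2-fold, at 1.17, and the lectin Canx was at -0.25. The leading members had smaller ratios in the line with 16 copies. Creld2 was at 0.62 in G37H, Sdf2l1 at 0.55, Manf at 0.39, Fkbp11 at 0.09, Dnajb9 at -0.29 and Hyou1 at -0.63, and Hspa5 was level with wild type. In G37H 0 of the 34 members were at least 2-fold higher, beside 2.78% of genes there, and their median was 0.13. In DTrsp the list median was 0.34 with 1 member at least 2-fold higher, beside 3.27% of genes there, and in A34 it was 0.16 with 0 members, beside 1.4%. For 28 of the 34 genes the G37L value exceeded the G37H value, against 50.9% of all genes. The 4 columns may share wild-type animals, and the difference between lines was not tested.

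**Figure D2:**
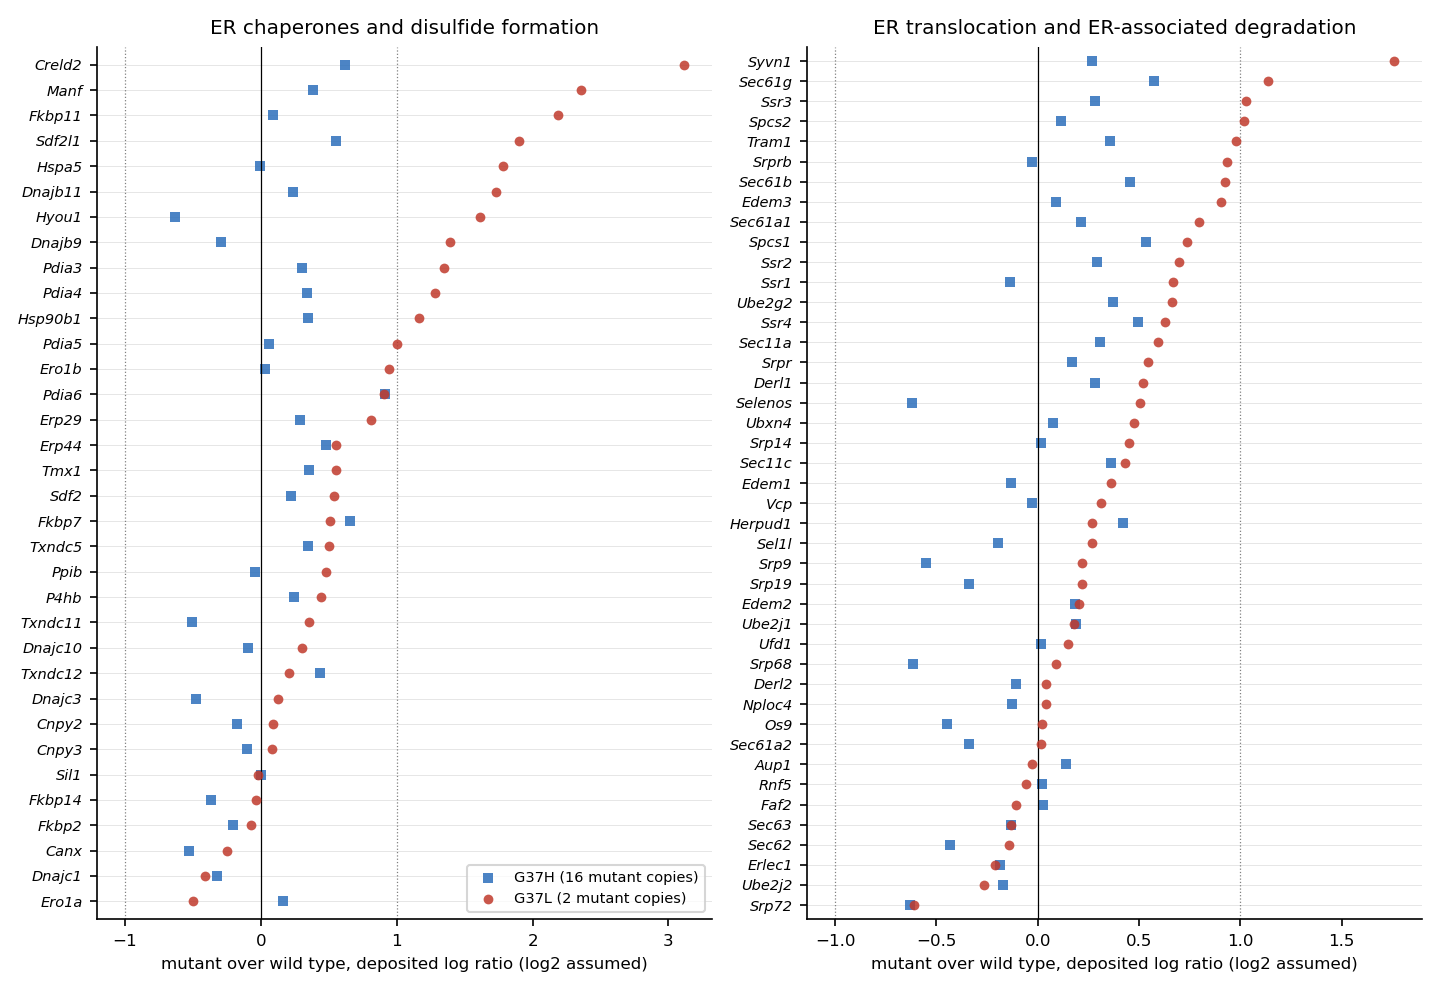
Deposited log ratios over wild type (horizontal axis, log2 assumed) in G37L (circles) and G37H (squares) for each measured gene of the ER chaperone list (left) and of the ER translocation and ER-associated degradation lists (right), ordered by the G37L value. Creld2, Manf and Fkbp11 lie above 2 in G37L and below 1 in G37H, and dotted lines mark 2-fold.

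Among the other steps of the secretory pathway, protein entry into the ER had the highest median. Of 22 genes of translocation and signal peptide removal, 19 lay above 0 and 3 were at least 2-fold higher, beside 2.51% of all genes. That count turned on the centring, with 6 when centred on the column median and 0 when centred on constitutive genes. The 3 were the channel subunit Sec61g at 1.14, the translocon-associated Ssr3 at 1.03 and the signal peptidase subunit Spcs2 at 1.02. Tram1 at 0.98, Srprb at 0.94, Sec61b at 0.92 and Sec61a1 at 0.79 followed, whereas subunits of the signal recognition particle, which acts before the membrane, reached no more than Srp14 at 0.45, and Srp72 was at -0.61. All 22 had a higher value in G37L than in G37H, where their median was 0.14. Of 36 ER to Golgi transport genes, 32 lay above 0, and 1, the cargo receptor Tmed9 at 1.20, passed 2-fold, or 2.78%, near the share of all genes. Centred on the column median, 3 did. The list median was 0.40, and in G37H 1 member was at least 2-fold lower. N-glycosylation, at a median of 0.29, and ER-associated degradation, at 0.20, lay inside the interval between receptor and ribosomal genes. Of 28 genes of N-glycosylation, 3 were at least 2-fold higher and 1 lower, with Ostc at 1.65, the ER nucleotide transporter Slc35b1 at 1.45, Gmppb, which makes GDP-mannose, at 1.32, and the catalytic subunit Stt3a at -1.56. Stt3a and Ostc belong to the same oligosaccharyltransferase and had 1 probe each, both with decimals that do not show how many arrays were averaged. In ER-associated degradation 1 of 21 genes, or 4.76%, passed 2-fold, the ubiquitin ligase Syvn1 at 1.76, and Edem3, which trims mannose, was at 0.90.

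The sensors and regulators of the unfolded protein response stood nearer to 0 than the chaperones. Of 8 measured regulators none passed 2-fold, which with no test says nothing of change below that size. Eif2ak3 (PERK) was at 0.85 and Atf6b at 0.51. The protease-released factor Creb3l3, a liver factor that acts on acute phase genes, was at 0.26, Tmbim6 at 0.23, Mbtps2 at 0.10, Atf6 at 0.07, Mbtps1 at 0.01 and Ern1 (IRE1) at -0.20. Of 21 genes of the integrated stress response, 0 were 2-fold apart. Atf5 was at 0.73, against -1.77 in G37H, Sesn2 at 0.68, and the eIF2 phosphatase subunit Ppp1r15a at -0.98. Cytosolic chaperones included Hsp90aa1 at 1.47 and Hsph1 at 1.21, 2 of 20 heat shock genes at least 2-fold higher, beside 2.51% of all genes. The median of the 20 was 0.36 in G37L and 0.71 in DTrsp as deposited. With each column centred on its own median, it was 0.47 and 0.55. In DTrsp 6 of them were at least 2-fold higher, beside 3.27% of genes there. The deposited median was 0.06 in G37H and 0.10 in A34, with 0 members higher by that much in either line.

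Acute phase genes were the highest list. Their products are plasma proteins that liver makes in larger amounts after interleukin-6 and interleukin-1. Of 29 measured, 22 were at least 2-fold higher, beside 2.51% of all genes, 0 were lower by that much, and 7 were among the 20 highest of all 9285. Serum amyloid genes led, with Saa2 at 4.79, or 27.7-fold, Saa1 at 4.31, Saa3 at 3.61 and Saa4 at 1.82. These 4 genes lie beside one another and are alike in sequence, so a probe of one may read another. Lcn2, which binds bacterial iron carriers, was at 4.47, serum amyloid P (Apcs) at 3.35, and C-reactive protein (Crp), a minor acute phase protein in mice, at 1.08. The fibrinogen chains, encoded side by side, lay close together, with Fgg at 1.68, Fga at 1.61 and Fgb at 1.51, and the related Fgl1 was at 3.08. Of protease inhibitors, Serpina3n was at 2.95, A2m at 2.02, Serpina10 at 1.99, Itih4 at 1.34 and Itih3 at 0.67. The orosomucoids Orm1 and Orm2 were at 2.10 and 2.01, Lrg1 at 2.27 and the lipopolysaccharide-binding Lbp at 1.18. Haem and haemoglobin binders Hpx and Hp were at 1.71 and 1.63, Steap4 at 1.69, and the copper carrier Cp at 0.93.

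A few members did not follow. Hamp, which encodes the iron hormone hepcidin and is a known target of interleukin-6, was at -0.03, the long pentraxin Ptx3 at -0.26, Serpina3b at -0.26, the interleukin-1 antagonist Il1rn at -0.47 and the C1 inhibitor Serping1 at 0.35. Genes with several probes gave close values: Fgg had 1.66 and 1.71, Fga 1.63 and 1.60, and Itih4 1.48 and 1.20. The probes of Hp and Steap4 also lay beyond 2-fold.

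The acute phase values of the other lines were smaller or mixed. In G37H, 8 of 29 were at least 2-fold higher, beside 2.78% of genes there, and the median was 0.61. Saa2 was at 1.39 in G37H, Lcn2 at 0.66, Saa1 at 2.27, Saa3 at 1.11, Apcs at 1.18, Fgl1 at 0.58 and Hp at 0.12. A2m was the other way round, at 3.24 in G37H against 2.02 in G37L. The median was 0.34 in DTrsp, with 2 members at least 2-fold higher, beside 3.27% of genes there, and 3 lower, beside 1.62%. In A34 it was 0.43, with 3 members at least 2-fold higher, beside 1.4% of genes there. Saa2 was at 0.22 in DTrsp and 0.64 in A34. In 25 of 29 genes the G37L value exceeded the G37H value, and the difference was not tested.

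**Figure D3:**
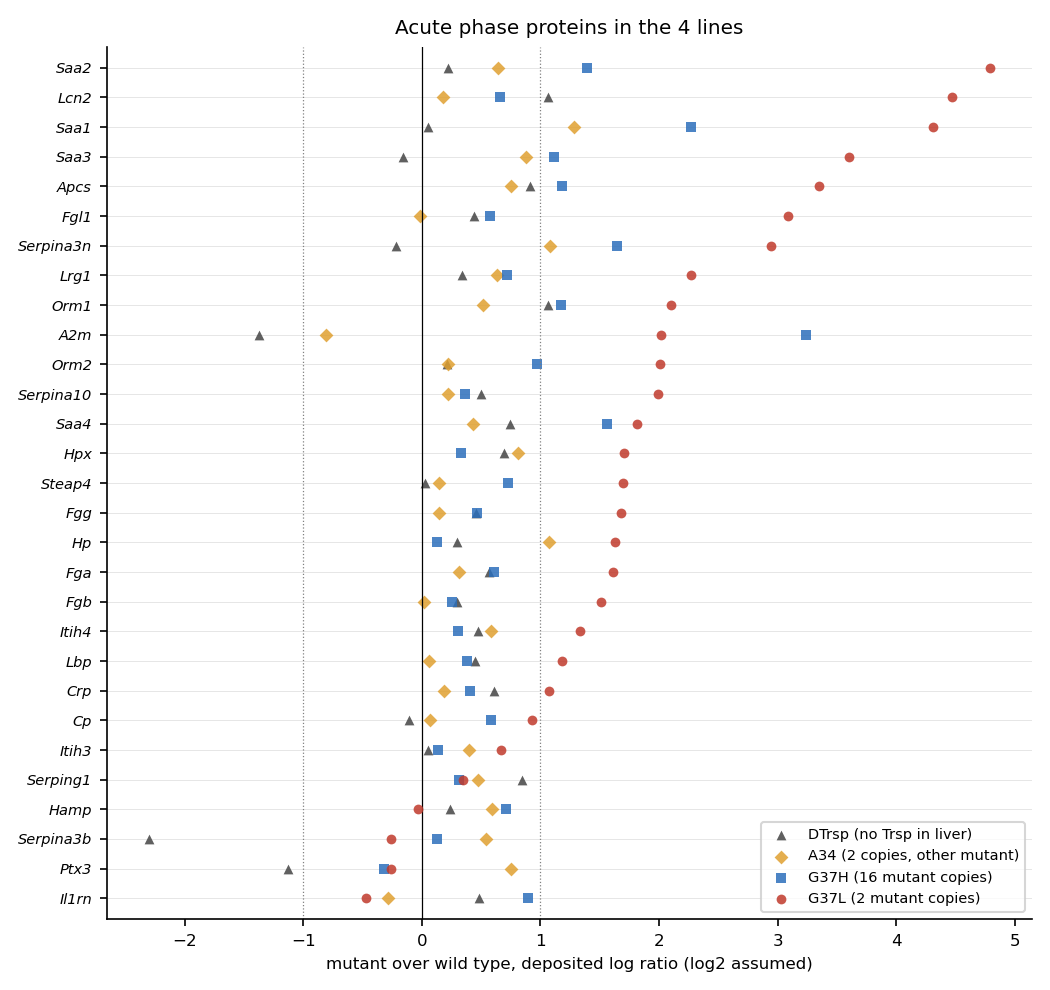
Deposited log ratios over wild type (horizontal axis, log2 assumed) of the 29 measured acute phase genes in G37L (circles), G37H (squares), DTrsp (triangles) and A34 (diamonds), ordered by the G37L value; each point is an average over animals with no spread available. In G37L 22 genes lie right of the 2-fold line and A2m is higher in G37H.

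Sites of the signal transducer STAT, which carries interleukin-6 signals, were searched as TTCNNNGAA on both strands. They were in 8.30% of all windows, and in 5 of the 16 windows of acute phase genes at least 2-fold higher: Apcs, Fga, Fgb, Itih4 and Steap4. Hamp, at -0.03, also held one, the only match in the 9 windows of members not 2-fold higher. With 4 bases of any kind in the middle in place of 3, matches were in 6.95% of all windows. At that spacing they were in 1 of the 16 windows of the higher members, that of Lcn2. They were in 2 of the 9 windows of the other members, both of Il1rn. The larger share among the higher members was therefore present at the first spacing only. The Apcs promoter is shown as the highest of the genes matched at the first spacing. Its match is in capitals, 244 to 236 bases before the start. No window of Saa1 or Saa2 held a match at either spacing.

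Apcs, chr1:172895055-172895304, minus strand: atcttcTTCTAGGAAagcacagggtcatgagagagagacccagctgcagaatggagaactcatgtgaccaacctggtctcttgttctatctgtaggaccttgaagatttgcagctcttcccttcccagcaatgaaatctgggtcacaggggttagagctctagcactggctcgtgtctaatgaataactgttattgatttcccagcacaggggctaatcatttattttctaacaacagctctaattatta

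Signalling genes upstream of the acute phase stood lower than their plasma protein targets. Of 38 measured genes of interleukin-6 and interleukin-1 signalling, 2 were at least 2-fold higher (5.26%) and 1 lower (2.63%), near the shares of all genes, 2.51% and 3.96%. The feedback inhibitor Socs3 was at 1.25 and the NF-kappaB cofactor Bcl3 at 1.03. Stat3 was at 0.89, over probes of 0.95 and 0.83, Nfkb2 at 0.88 and the receptor Il1r1 just inside 2-fold. The inhibitor of apoptosis Birc3 was at -1.89. The 5 measured ligands had a median of -0.40. The neutrophil attractant Cxcl1 was at 2.85, against -0.14 in G37H, and Cxcl10 was at 1.21. The immediate early gene Egr1 was at 1.25.

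Complement genes stood together without any passing 2-fold: 23 of 26 lay above 0, the median was 0.48, and C1qc was the highest at 0.86. In G37H their median was 0.44. Clotting factors had a median of -0.10 over 17 genes. Plasma proteins known to fall in inflammation were not lower as a list. The median of 14 was 0.48, with Alb at 0.67, Apoa1 at 0.73, Ttr at 0.50 and Ahsg at 0.65. The hormone carriers split, with thyroxine-binding globulin (Serpina7) at 1.88 and corticosteroid-binding globulin (Serpina6) at -1.28. Serpina6 is the neighbour of Serpina10, which was at 1.99, so adjacent genes of the serpin cluster lay at opposite ends.

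Markers of Kupffer cells and macrophages were also higher. Of 32 measured, 8 were at least 2-fold higher, beside 2.51% of all genes, and 0 lower, and the median was 0.46. Centred on constitutive genes, 5 were higher by that much. Mpeg1 was at 1.60, Ctss at 1.37, Clec4f, a marker of Kupffer cells, at 1.24, Fcer1g at 1.22, Cd5l at 1.20, Fcgr1 at 1.13, H2-Aa at 1.04 and Vsig4 at 1.03. The macrophage factor Spi1 was at -0.61 and Marco at 0.34. In G37H 6 of 32 were at least 2-fold higher, beside 2.78% of genes there, and the median was 0.33, with Vsig4 at 1.56. For 14 of the 32 genes the G37L value exceeded the G37H value, against 50.9% of all genes. The median was 0.51 in A34, with 3 members at least 2-fold higher, beside 1.4% of genes there. With each column centred on its own median, the list median was 0.57 in G37L and 0.44 in A34 and G37H, so the order of G37L and A34 turned on the centring. In DTrsp the median was 0.09. Of 6 neutrophil markers 3 passed 2-fold: Lcn2, which hepatocytes also make, at 4.47, the decoy receptor Il1r2 at 1.36 and S100a8 at 1.23, while Csf3r was at -0.89. Lymphocyte markers lay lower, 7 of 9 below 0, with Zap70 at -1.19 and Ighm at -1.04. The 25 hepatocyte markers had a median of 0.33 and the 21 endothelial markers -0.03. The part of these cells in the acute phase values was not tested.

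Metallothioneins, which bind zinc, were high in G37L as in the other lines. Mt2 was at 4.46, Mt1 at 3.94 and Mt4 at 3.12, whereas the brain form Mt3, which lies between Mt4 and Mt2, was at -0.08. In G37H, DTrsp and A34, Mt2 was at 4.43, 4.21 and 1.67, and Mt1 at 3.16, 2.74 and 1.48. Mt4 is known from squamous epithelium and resembles its neighbours, and its probe may read them. The zinc importers Slc39a10 and Slc39a14, the second induced by interleukin-6, were at 1.22 and 0.59, Slc39a7, which releases zinc from the ER, at 0.99, and the exporter Slc30a1, a known target of the metal sensor Mtf1, at -0.26. The Mt2 promoter is shown because it is the highest of these genes. Its core of the metal response element, TGCNCNC, is in capitals.

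Mt2, chr8:94172368-94172617, plus strand: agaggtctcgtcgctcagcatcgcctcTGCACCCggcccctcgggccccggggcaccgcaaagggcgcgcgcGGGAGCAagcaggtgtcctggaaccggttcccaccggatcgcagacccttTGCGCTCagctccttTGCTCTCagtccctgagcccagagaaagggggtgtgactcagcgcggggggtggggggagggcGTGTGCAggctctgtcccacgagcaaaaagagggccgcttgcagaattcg

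The core is short and was in 51.0% of all windows. Mt2 held it 6 times, 5 of them before the start, and 0.225% of windows held at least 6. Mt4 held it 5 times and Mt1 and Mt3 3 times each, so the number of cores did not separate Mt3 from the others.

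Selenoprotein transcripts, the direct clients of the tRNA, lay on both sides of 0. Of 19 measured, 13 were below 0, where 60.6% of all genes were. None passed 2-fold upwards, beside 2.51% of all genes, and 2 (10.5%) passed it downwards, beside 3.96%. Centred on constitutive genes, 4 (21.1%) were lower by that much, beside 7.19% of all genes. Kinds of selenoprotein were not tested against each other, and each kind had members below 0. The 4 stress-related members were Selenow at -1.60, Gpx3 at -0.96, Gpx1 at -0.95 and Msrb1 at -0.28. Mitochondrial Txnrd2 was at -1.42, cytosolic Txnrd1 at -0.17, Gpx4 at 0.07, and Selenop, which carries selenium in plasma, at 0.34. The ER members Selenok and Selenos, which take part in ER-associated degradation, were the highest, at 0.61 and 0.50, and were at -0.21 and -0.62 in G37H. Selenow, Gpx1 and Txnrd2 were at -1.59, -0.57 and -1.53 in G37H, and at -1.02, -0.55 and -0.85 in DTrsp. Of 13 factors of selenocysteine synthesis and insertion, Sephs1 was at 1.14 and the RNA-binding Ncl at -1.15. The kinase Pstk was at -0.90, Secisbp2 at -0.54, Sepsecs at -0.29 and Trit1, which places the isopentenyl group on the base at position 37, at -0.16.

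Sulfur amino acid genes lay low as a list, led by Cth. Of 22 genes 17 lay below 0, where 60.6% of all genes did. Cth and Got1 were at least 2-fold lower, 2 of the 22, beside 3.96% of all genes. Centred on the column median, only Cth was lower by that much, and 3 were when centred on constitutive genes. Cth, which makes cysteine from cystathionine, was at -2.47, or 5.54-fold lower, over probes of -2.77 and -2.17. It was at -2.35 in G37H, -1.07 in A34 and 0.17 in DTrsp. Got1 lay just past 2-fold lower, Csad, which makes taurine, was at -0.97, Ahcy at -0.73 and Cbs, the step before Cth, at -0.71. Gclc, the limiting enzyme of glutathione synthesis, was at -0.60, against 2.46 in DTrsp, while Gclm was at 0.04 and cysteine dioxygenase Cdo1 at 0.34. The list median was -0.08 in G37H and 0.56 in DTrsp. Of 49 genes of amino acid breakdown and the urea cycle, 5 (10.2%) were at least 2-fold lower and 0 higher, beside 3.96% and 2.51% of all genes. Centred on constitutive genes, 9 (18.4%) were lower, beside 7.19% of all genes. The 5 were Afmid, of tryptophan breakdown, at -1.55 over 6 probes from -1.80 to -1.03, ornithine transaminase Oat at -1.34, Aldh7a1 at -1.32, Prodh at -1.27 and Got1. Got1 belongs to this list and to the sulfur amino acid list, and is counted in both. The 8 urea cycle genes had a median of -0.06.

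**Figure D4:**
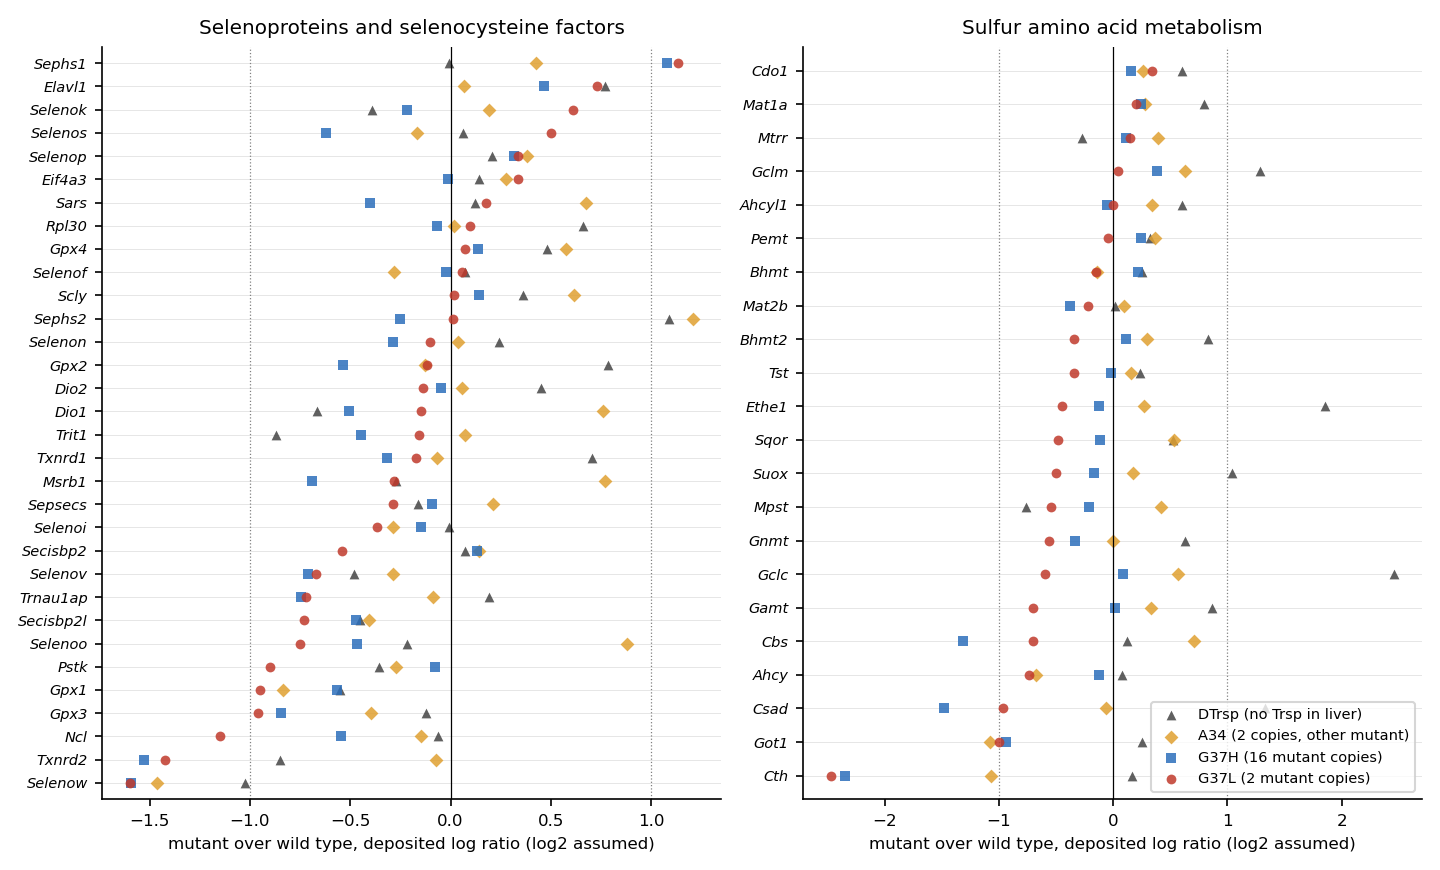
Deposited log ratios over wild type (horizontal axis, log2 assumed) of selenoprotein and selenocysteine factor genes (left) and sulfur amino acid genes (right) in G37L (circles), G37H (squares), DTrsp (triangles) and A34 (diamonds), ordered by the G37L value. Cth is the lowest point of the right panel in G37L, at -2.47, and Selenow that of the left panel, at -1.60.

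Lipid and bile acid genes lay on both sides of 0. Of 24 genes of bile acid synthesis and transport, 18 lay below 0, where 60.6% of all genes did, and 16 lay below the column median. At least 2-fold lower were 3, or 12.5% beside 3.96%, and 1 was higher. Centred on constitutive genes, 5 were lower. The low members included the reductase Akr1d1 at -1.73, the sterol exporter Abcg8 at -1.38 and its partner Abcg5 at -0.85, and the 12-alpha-hydroxylase Cyp8b1 at -1.29. The oxysterol hydroxylase Cyp7b1 was at 1.25. Fatty acid synthesis held 5 of 29 genes at least 2-fold lower, beside 3.96% of all genes, and 0 higher: the regulator Srebf1 at -1.80, the fatty acid carrier Cd36 at -1.63, Acss2 at -1.28, Gpam at -1.22 and Thrsp at -1.16. Cholesterol synthesis and uptake had 4 of 21 at least 2-fold higher, beside 2.51% of all genes, and 0 lower, with 2 higher when centred on constitutive genes. The 4 were Insig2, an ER anchor of the SREBP pathway, at 1.94 over probes of 1.54, 1.62, 1.95 and 2.66, and the enzymes Sqle, over probes of 1.41 and 1.60, Idi1 at 1.14 and Cyp51 at 1.01. In A34, Sqle was at -1.39, Idi1 at -1.18 and Cyp51 at -1.19. In G37H those 3 enzymes were at 0.03, 0.10 and 0.06, whereas Insig2 was at 1.59 and Srebf1 at -1.68.

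Drug-metabolising enzymes lay on both sides. Of 55 cytochromes P450, 5 were at least 2-fold higher (9.09%) and 7 lower (12.7%), beside 2.51% and 3.96% of all genes. Centred on the column median, 4 were lower. Cyp2a5, which hydroxylates coumarin, had probes of -2.10, -1.99 and -1.92, against 0.07 in G37H, 1.22 in A34 and 2.65 in DTrsp. Cyp4a14 and Cyp4b1 were both at -1.63. Cyp2c70 was at 1.52, Cyp2c39 at 1.39 and Cyp2b10, a known target of the receptor CAR, at 1.37 over 3 probes. Of 82 phase II and NRF2 target genes, 10 were at least 2-fold lower (12.2%) and 3 higher (3.66%), where DTrsp had 38 higher and 0 lower, beside 3.27% and 1.62% of genes there. The glutathione transferase Gsta1 was at -1.31 against 2.06 in DTrsp, and the carboxylesterase Ces1d was 4.01-fold lower, against 0.59 on the log2 scale in DTrsp. The 3 higher were Gstp3 at 3.63, the glucuronosyltransferase Ugt2b38 at 2.75 and Hmox1 at 1.27. Gstp3 was at 4.89 in G37H and 0.58 in DTrsp. These families are alike in sequence, and a probe may read a relative.

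Clock outputs stood lower than the core clock. The 13 core genes had a median of -0.17 and none passed 2-fold, with Nr1d1 at 0.10, Per2 at 0.08, Clock at -0.27, Per1 at -0.44, Cry2 at -0.67 and Per3 at -0.67. Of 15 outputs, with a median of -0.63, 5 were at least 2-fold lower, beside 3.96% of all genes. Rgs16, which damps G protein signals and cycles in liver with the hour of day, was the lowest of all 9285 genes at -2.80, or 6.96-fold lower, and was at -2.12 in G37H. The lipid carrier Mfsd2a was at -2.14, and at -1.85 in A34, -1.20 in DTrsp and -0.50 in G37H. Uridine phosphorylase Upp2 was at -1.60 over probes of -1.65, -1.65 and -1.48, Alas1, the first enzyme of haem synthesis, at -1.52 and the kinase Wee1 at -1.06. Dbp, a direct target of the core clock, was at -0.01, against -1.42 in G37H. The labels used here give no hour of collection.

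Genes known to be female-biased in mouse liver lay low in these male animals. Of 11 female-biased genes 10 lay below 0, where 60.6% of all genes did, and 4 were at least 2-fold lower, beside 3.96%. The 4 were Cyp4a14, Cd36, Acot4 at -1.62 and Cyp3a44 at -1.04. The median of the 11 was also low in A34, at -0.53, and was 0.57 in DTrsp. In G37H it was -0.02, with 3 members at least 2-fold lower, beside 3.1% of genes there, and 1 higher, beside 2.78%. Of 22 male-biased genes, with a median of 0.42, 3 were at least 2-fold higher, beside 2.51% of all genes, and 1 lower, beside 3.96%. The 3 were Ugt2b38, the pseudogene Serpina4-ps1 at 1.32 and Cyp7b1, and the lower was Susd4 at -1.13. Centred on constitutive genes, 3 were lower. The median of the 22 was 0.53 in A34, 0.49 in G37H and -0.36 in DTrsp. In G37H 5 of them were at least 2-fold higher, beside 2.78% of genes there. Hsd3b5, a strongly male gene, lay just inside 2-fold lower, against -3.01 in DTrsp. In the growth hormone list, Foxa3 was at 1.13, Cish, an immediate target of growth hormone, at -1.06, Onecut1 at -1.07 and Igfbp5 at -2.08.

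The remaining extremes belonged to no list or to scattered ones. Among the 20 highest were Cap1 at 3.18, a regulator of actin, which was at 3.11 in G37H and 2.85 in A34, the receptor kinase Alk at 3.13 against 0.69 in G37H, and the interferon-induced Oas3 at 2.36. Among the 20 lowest were Dct, a pigment enzyme not known for a use in liver, at -2.47 over probes of -2.48 and -2.46, the phosphatase Inpp5k at -2.29, the succinate receptor Sucnr1 at -2.23 and the steroid dehydrogenase Hsd3b3 at -2.06. Olfr1495, an olfactory receptor, was at -2.21, so an average as far as that from 0 also occurred in a gene with no known use in liver. Of the 20 highest the value just inside was Manf at 2.35, and just outside was Rad51b at 2.35. Cyclin D1 (Ccnd1), which drives entry into the cell cycle, was at 1.53 over probes of 1.03, 1.67 and 1.88. The proliferation list as a whole had a median of -0.25 over 21 genes. Of these 21, 3 (14.3%) were at least 2-fold higher and 0 lower, beside 2.51% and 3.96% of all genes.

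How firmly a single value can be read was judged from probes of the same gene and from decimals. The pooled SD between probes of a gene was 0.37 over 2414 genes with 2 or more probes, and for 1791 genes with exactly 2 probes the signs were the same in 63.8%. By all of their probes, 14 genes were at least 2-fold higher and 18 lower, where the mean of probes gave 19 and 42. The 14 included Fga, Fgg, Hp, Itih4, Steap4, Insig2, Sqle, Cyp2b10, Ccnd1 and Hsp90aa1, and the 18 included Cth, Cyp2a5, Upp2, Afmid, Acss2 and Papss2, a donor enzyme of sulfation chosen here after its value of -1.49 was seen. Some decimals arise only from an average over 4 arrays, and 4530 probes (29.3%) had them. With the share of such averages that show it, this would stand for 58.5% of probes averaged over all 4 arrays. The rest would rest on fewer arrays. Of probes with 4-array decimals 5.03% were at least 2-fold apart, against 9.74% of the 5843 with no fraction, which any number of arrays can give. In that last class, which held 37.8% of all probes, were 7 of the 20 highest and 10 of the 20 lowest genes. The 20 highest thus held no larger share of it than all probes did. Values from it (Alk, Cap1, Serpina3n, Serpina7, Stt3a, Birc3, Loxl2) are the least secured here. Hspa5, Manf, Fkbp11, Hyou1, Lcn2, Saa3, Apcs, Mt2, Rgs16, Mfsd2a and Ces1d had 4-array decimals.

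**Figure D5:**
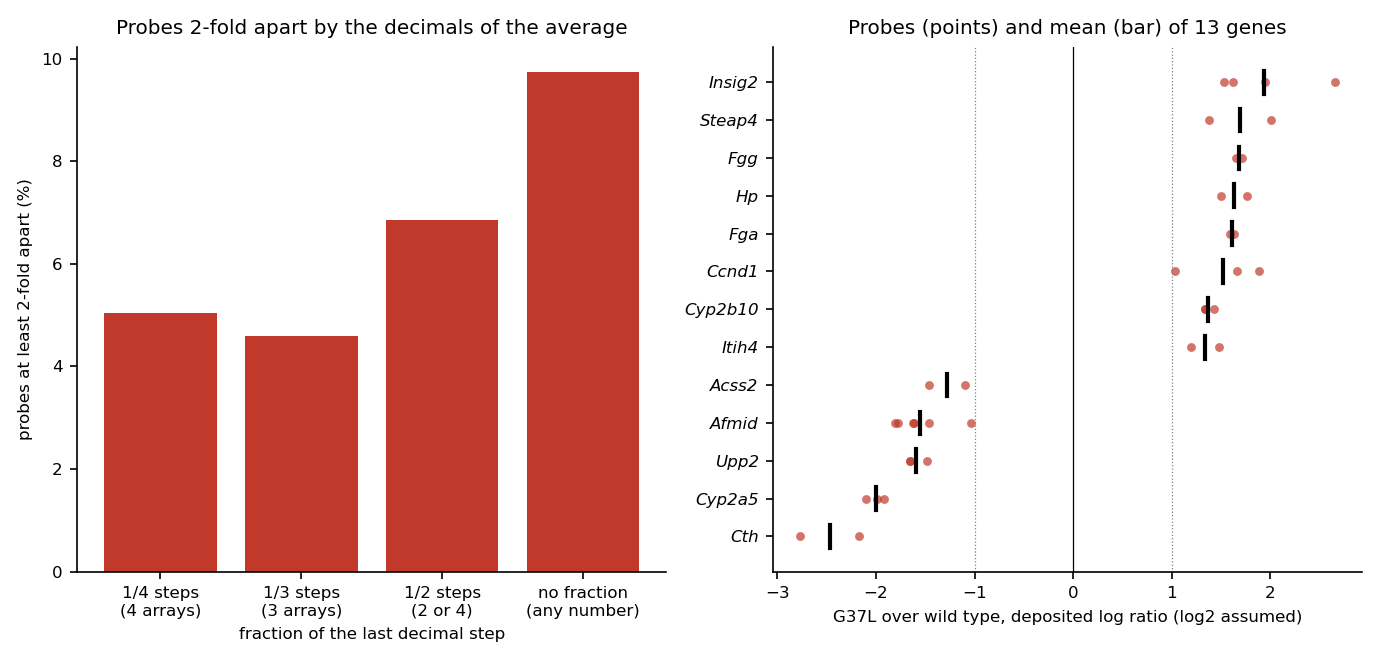
Left, the share of probes at least 2-fold apart in G37L (bars, percent, from 0) by the fraction of the last decimal step in which the average ends. Averages with no fraction have the largest share, 9.74%. Right, each probe (points) and the mean (bar) of 13 genes with several probes on the deposited log scale (log2 assumed). These 13 were picked from the genes with all probes beyond 2-fold, so that all probes shown lie beyond the 2-fold lines follows from the choice.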

How the data were processed

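The authors' deposited table holds, per the labels, 1 average over animals per probe and line. The deposited values were read as log2 ratios, with mutant (Cy5) in the numerator. That scale, any dye swap, the background correction, the normalization and whether wild-type animals were shared are unstated in the labels used here. As log10, the farthest value would be a 78331-fold ratio, so that base was set aside. Of 15478 probes, 12984 were named through the platform annotation's gene identifier and the RefSeq gene table of GRCm38.p6, and 63 kept the annotation's symbol. A further 110 with several genes and 2321 not listed stayed unnamed. Probes were averaged per gene with Python 3.11.15 and pandas 2.3.3, which was tested on simulated data. Genes were counted at 2-fold (log2 of 1), and 53 gene lists were described by counts and medians, with no test, since there is 1 value per gene. The array number limits the precision.

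Members and lists were chosen with earlier results of these data known. Named genes are the 20 highest and 20 lowest, measured members of the acute phase (both lists), ER chaperone, unfolded protein response, metallothionein, selenoprotein, selenocysteine factor, sulfur amino acid and clock lists, and up to 6 extreme members of any other list. Genes outside this (Abcg5, Alb, Apoa1, Ahsg and some P450, signal recognition and marker genes given for contrast) were chosen after their values were seen. Unnamed transcripts were skipped. Promoters came from RefSeq windows.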

Additional observations from a re-analysis of the deposited data

Results flagged for a closer look

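3 genes named by the rule lay at least 2-fold apart in opposite directions in G37L and G37H, of 7 such genes among all 9285. The difference between these lines was not tested, since each has 1 averaged value per gene. Serpina7, which encodes thyroxine-binding globulin, was at 1.88 in G37L and -1.38 in G37H, and at 1.70 in DTrsp and -1.44 in A34. Loxl2, a lysyl oxidase of matrix, was at -2.16 in G37L and 1.12 in G37H. Vmn1r219, a vomeronasal receptor with no known use in liver, was at -1.05 in G37L and 1.01 in G37H. All 3 had 1 probe, and their G37L averages had no fraction in the last decimal step, the class with the largest share of values at least 2-fold apart.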

How the results depend on the processing

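The alternatives were thresholds, centring, averaging of probes, probe and decimal filters and the base of the logarithm. At 1.5-fold, 692 genes were higher and 1424 lower, and at 3-fold 61 and 59. Read as natural logarithms, the values gave 512 higher and 1030 lower. Centred on constitutive genes, 668 were lower. Among probes with decimals that only 4 arrays give, 72 of 3348 genes were higher and 82 lower, and 14 and 18 genes were past 2-fold by each of 2 or more probes. The other 9 alternatives for these counts moved them by less than 1.5 times. The medians of the 10 lists tried kept their sign and moved by less than 0.37, the pooled SD between probes of a gene, under centring, the median of probes, single-probe genes, 4-array decimals and the mean over members. Counts of 2-fold members of 19 lists, higher and lower, were also recomputed, and 96 of 304 moved by more than 1.5 times, most under another threshold or base or among 4-array decimals, which leave fewer genes. Centring on the column median moved 5 of 38 and on constitutive genes 8 of 38. Those given above aside, fatty acid genes then had 1 higher in place of 0 and metallothionein and zinc genes 1 lower in place of 0. The acute phase median ran from 1.52 to 1.99 and that of ER chaperones from 0.37 to 0.86. No paired analysis was possible because each line has 1 averaged column, and for the same reason no animal could be left out. Signal over background was not used here, so dim genes could not be set aside.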

Other observations

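The lists of glucose metabolism and of iron and haem lay near the column median in G37L. Of 26 glucose genes 13 lay below 0, and of 28 iron and haem genes 16, beside 60.6% of all genes. Pdk1, a kinase that shuts off pyruvate dehydrogenase, was at -1.48, Ppp1r3b, a glycogen-targeting subunit, at -1.34 and Pklr, the liver pyruvate kinase, at -1.02, although its probes were at -1.86 and -0.18. Ldha, which makes lactate, was at 1.05. Among the iron and haem genes 4 were at least 2-fold lower (14.3%) and 1 higher (3.57%), beside 3.96% and 2.51% of all genes. Centred on the column median, 3 were lower. Id1, a target of BMP signals, was at -1.59, and the biliverdin reductases Blvra and Blvrb were at -1.19 and -1.08, while Bmp6 was at 0.86. Of 39 genes of interferon response and antigen presentation, 4 were at least 2-fold higher (10.3%) and 0 lower, among them Ifi47 at 1.30, Ifitm1 at 1.25 and Ddx58, a sensor of viral RNA, at 1.08. Lrat, which stores retinol in stellate cells, was at -1.51. The 18 stellate cell and fibroblast markers did not lie low as a list, with a median of -0.04 and 8 above 0. Of the 18, 2 (11.1%) were at least 2-fold lower and 0 higher, beside 3.96% and 2.51% of all genes.

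The 2431 probes without 1 named gene were left out of the comparisons. Of these, 140 were at least 2-fold higher in G37L and 119 at least 2-fold lower, together 10.7%, and they ran from -2.22 to 2.94.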
